A study of Mus musculus with 17 samples.

Results

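The genes described here encode cytokines and receptor chains of the common gamma chain family, in B cells, CD4 T cells and epithelial cells of NOD mice. The 10 genes were chosen by symbol: the cytokines Il2, Il7 and Il15 and the receptor chains Il2ra, Il2rb, Il2rg, Il4ra, Il7r, Il15ra and Il21r. Of these, 8 had a probe set that carried their symbol alone, among 17097 genes measured in all, and each was read from its probe set with the highest mean over the arrays. Il2rg, which encodes the shared gamma chain itself, and Il7r, the receptor chain for Il7, were not analysed here.

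Cytokines of this family signal through receptors that contain the common gamma chain together with private chains. The Il2 receptor adds the alpha chain Il2ra (CD25), which raises affinity, to the beta chain Il2rb (CD122); the Il15 receptor shares Il2rb and uses Il15ra, which can also present Il15 to neighbouring cells. Il4ra and Il21r are the receptor chains for Il4 and Il21, and Il4ra also pairs with Il13ra1. The receptors work through the kinases Jak1 and Jak3 and through STAT proteins, and in lymphocytes they control survival, proliferation, help to B cells and the upkeep of regulatory T cells.

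The NOD mouse develops lymphocytic infiltration of the lacrimal gland and serves as an animal model for Sjögren's syndrome, and splenic cells served as the steady-state comparison. Sorted cells of male NOD mice were hybridised to 17 arrays, namely 4 arrays of lacrimal gland B cells, 4 of lacrimal gland CD4 T cells, 3 of lacrimal gland epithelial cells, 3 of spleen B cells and 3 of spleen CD4 T cells, and the labels name no treatment. B cells were gated as CD45+ B220+ CD3-, CD4 T cells as CD45+ CD3+ CD4+ (both without NKp46, CD11b and CD11c), and epithelial cells as CD45- CD326+. The sample labels give 16 weeks of age for every sample, whereas the design text gives 4 weeks for the mice that supplied the spleens, and enzymatic digestion is described for the gland only, so that tissue, digestion and possibly age cannot be told apart in any gland against spleen difference. Nothing states that the arrays of a group came from separate mice, so the p-values below measure the spread between these arrays, which may be technical.

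Values are log2 expression values, and the number of arrays limits their precision. No detection calls were used, so levels under 4.71, which is the median over every value in the table, are not shown to exceed background. Levels of different genes come from different probe sets and are not set against each other. Arrays of a group correlated with each other at 0.976 to 0.996 over all genes, and no pair was identical. Lineage markers followed the labels in the lymphocyte sorts: Cd3d lay between 11.50 and 11.64 in the CD4 T cell arrays and Cd79a between 10.96 and 11.15 in the B cell arrays.

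Epithelial replicate 1 stood apart. It carried Ptprc, which encodes the CD45 that the gate excluded, at 9.62 against a mean of 2.39 in the other 2 epithelial arrays, the natural killer genes Gzma at 9.47 against 2.12, Klrd1 at 8.58 against 2.17 and Ncr1 at 6.27 against 1.94, and the CD3 chain gene Cd3d at 8.82 against 4.16. The mean of 6 natural killer and innate lymphoid markers was 7.09 there and 2.54 and 2.67 in the other 2 arrays, while Cd4 was at 4.69 against 4.24 and the epithelial gene Epcam at 10.46 against 10.79. In the same array Il2rb was at 8.86 against a mean of 2.38 in the other 2, and Il2ra at 6.16 against 2.996, so both receptor genes followed the leukocyte genes there. Il15, Il7 and Il15ra did not follow them, with differences of -0.20, -0.04 and -0.67 between that array and the mean of the others. Since all 17 arrays share 1 estimate of the spread in limma, this array widened the error of Il2ra and Il2rb in every comparison, and results for these 2 genes are given with it and without it.

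**Figure D1:**
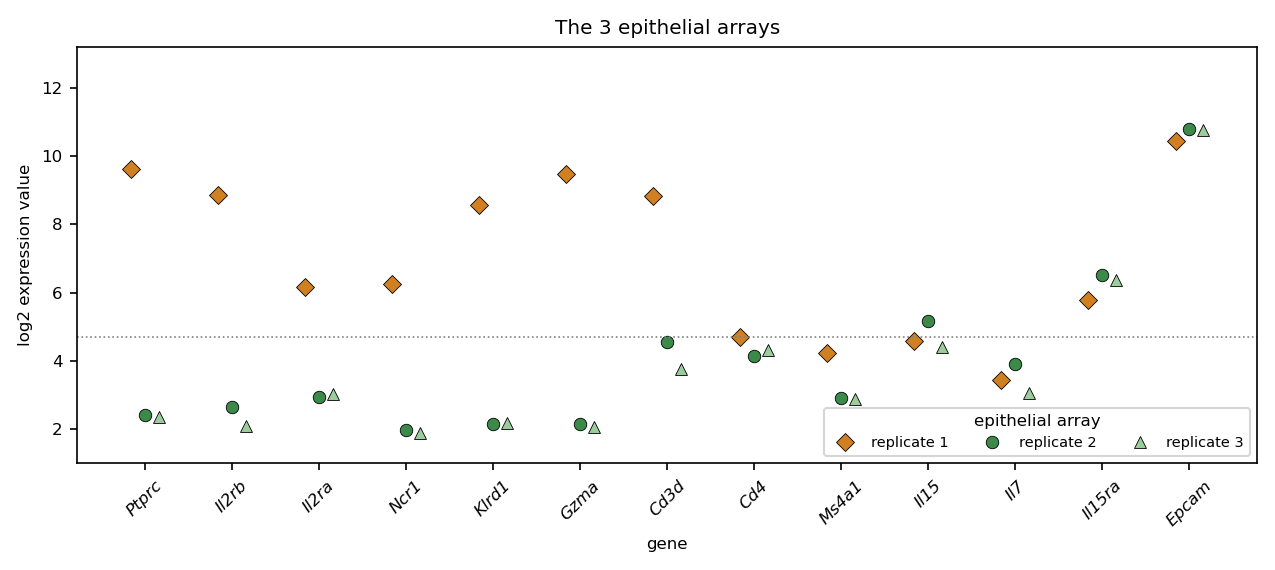
Log2 expression values (vertical axis) of leukocyte, natural killer, T cell, B cell and epithelial genes and of 5 family members (horizontal axis) in the 3 epithelial arrays; each symbol is 1 array and the dotted line is the median of all values, 4.71. Replicate 1 lies far above the other 2 for Ptprc, Il2rb, Il2ra, Ncr1, Klrd1, Gzma and Cd3d and beside them for Il15, Il7 and Epcam.

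A gene was called when its Benjamini-Hochberg adjusted p in limma, over all 17097 genes, was under 0.05 and its change at least 2-fold. In CD4 T cells, gland against spleen, 2 of the 8 members were called higher, Il2 and Il15ra, and none lower, where 5.35% of all genes were called higher and 1.62% lower; without epithelial replicate 1 there were 3, with Il2rb added, where 5.46% of all genes were called higher. The members' median difference was 0.59 on the log2 scale beside -0.03 over all genes. In B cells no member was called in either direction, where 2.58% of all genes were called higher and 1.60% lower, and the members' median was 0.11 beside 0.00. With the same adjusted p and no minimum fold the count in B cells was also 0, where 17.7% of all genes passed; the unadjusted 95% intervals of Il4ra and Il21r lay above zero. Without epithelial replicate 1 the count was 1, Il2ra, which was lower in gland with an unadjusted 95% interval of -1.08 to -0.44, where 19.5% of all genes passed. The second Il2ra probe set did not pass there (limma adjusted p over all probe sets = 0.0533). The difference between the gland effects was itself called for Il2 and Il15ra, both smaller in B cells, where 3.87% of all genes were called in that direction.

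**Figure D2:**
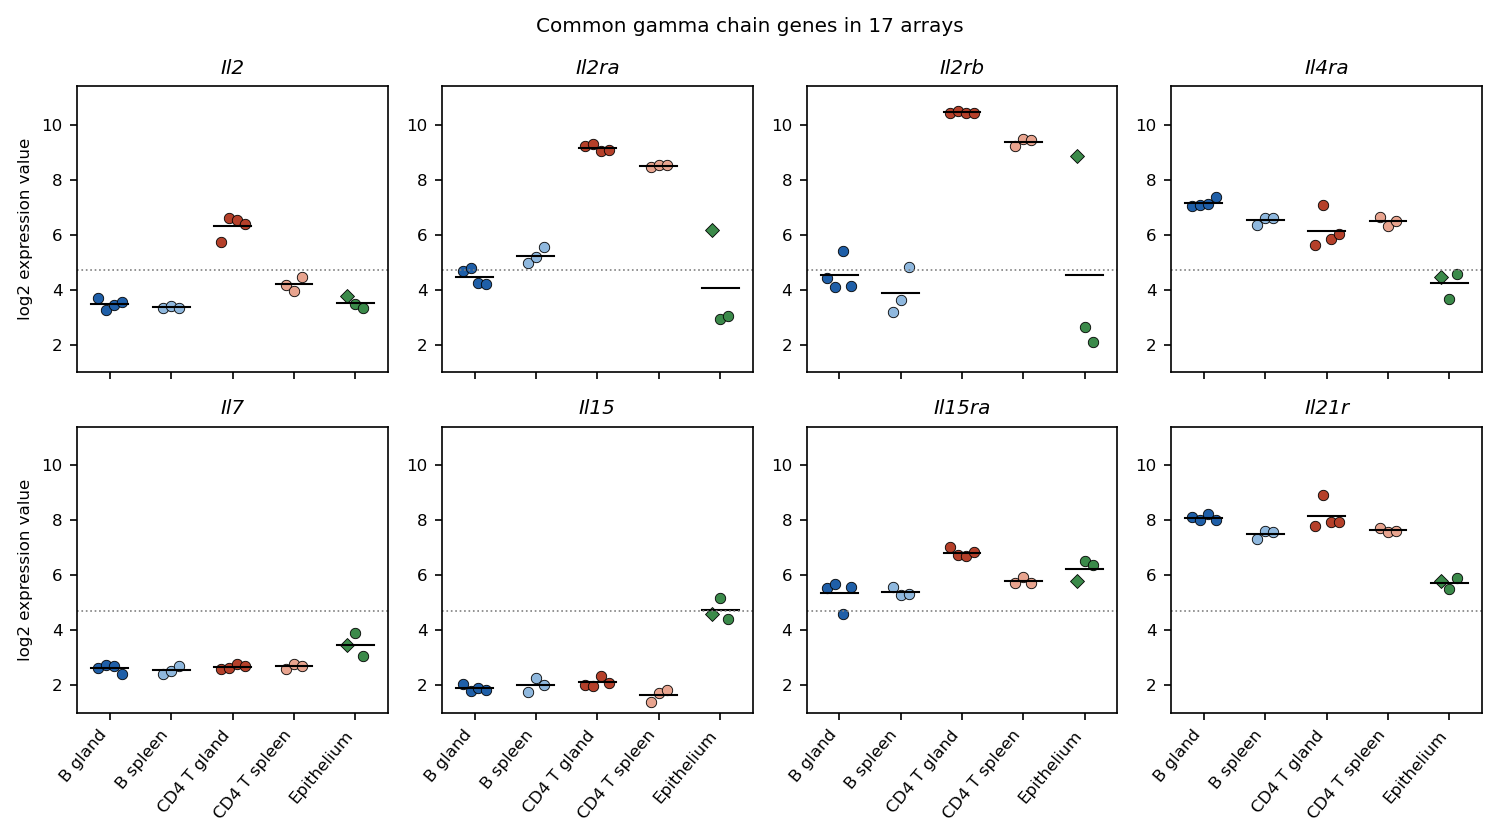
Log2 expression values (vertical axis) of the 8 measured members in the 5 groups (horizontal axis); each point is 1 array, diamonds mark epithelial replicate 1, bars are group means and the dotted line is the median of all values, 4.71. Il2, Il2ra, Il2rb and Il15ra lie highest in gland CD4 T cells, and Il15 lies highest in epithelial cells.

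Il2, the growth factor that activated CD4 T cells make, was 4.31-fold higher in CD4 T cells of gland than of spleen. Its values were 5.72, 6.59, 6.52 and 6.38 in the 4 gland arrays and 4.17, 3.96 and 4.46 in the 3 spleen arrays. All gland arrays lay above all spleen arrays, and the spleen values lay below the median of all values. The difference was 2.11 ± 0.18 (SE; limma adjusted p = 3.55e-07). In sorted bulk RNA, more cells that express a gene and more RNA per cell cannot be told apart.

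In B cells Il2 was flat and dim, with means of 3.50 ± 0.18 (SD, n = 4) in gland and 3.36 ± 0.04 (SD, n = 3) in spleen. The gland effect in B cells was smaller than that in CD4 T cells by 3.92-fold (log2 difference -1.97 ± 0.26 SE; limma adjusted p = 8.18e-05). Epithelial arrays were at 3.35 to 3.76. The order of the group means was gland CD4 T cells, spleen CD4 T cells, epithelium, gland B cells and spleen B cells; the first 2 steps of that order passed an adjusted p of 0.05, and the last 2 did not (adjusted p = 0.876 and 0.678).

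Because Il2 and Il15ra rose together in gland CD4 T cells, the RefSeq windows around their start sites are shown, as 250 bases before to 50 bases after each start in the GRCm38.p6 reference, which is C57BL/6J and not NOD sequence. Il2 (chr3:37120713-37125954, minus strand) has 1 window, chr3:37125905-37126204, and Il15ra (chr2:11705172-11733985, plus strand) has 2, chr2:11705043-11705342 and chr2:11705462-11705761, for 2 start sites. Capitals mark matches on either strand to 4 motifs: AP-1 (TGANTCA), STAT (TTCNNNGAA), IRF (AANNGAAA) and NFAT (GGAAAA).
Il2: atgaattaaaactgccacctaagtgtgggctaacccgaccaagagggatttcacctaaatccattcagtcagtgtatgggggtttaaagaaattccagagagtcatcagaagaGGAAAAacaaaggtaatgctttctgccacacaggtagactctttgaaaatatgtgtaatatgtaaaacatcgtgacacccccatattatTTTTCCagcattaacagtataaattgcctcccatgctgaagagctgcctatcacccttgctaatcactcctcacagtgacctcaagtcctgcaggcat
Il15ra first start: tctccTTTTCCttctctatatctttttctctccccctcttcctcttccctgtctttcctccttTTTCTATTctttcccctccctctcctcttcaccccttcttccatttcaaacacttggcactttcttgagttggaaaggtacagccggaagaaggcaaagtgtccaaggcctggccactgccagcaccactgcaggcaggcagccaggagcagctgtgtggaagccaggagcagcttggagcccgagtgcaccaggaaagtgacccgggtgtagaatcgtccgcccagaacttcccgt
Il15ra second start: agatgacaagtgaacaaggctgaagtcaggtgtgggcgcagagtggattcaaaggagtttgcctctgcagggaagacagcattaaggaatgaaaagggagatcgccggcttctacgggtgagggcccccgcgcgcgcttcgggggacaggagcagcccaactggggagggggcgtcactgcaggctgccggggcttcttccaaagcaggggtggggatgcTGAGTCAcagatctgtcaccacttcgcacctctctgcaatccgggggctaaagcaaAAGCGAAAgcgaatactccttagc
The Il2 window held NFAT letters at 137 and 48 bases before the start. The first Il15ra window held an NFAT match 245 bases and an IRF match 187 bases before the start, and the second an AP-1 match 30 bases before and an IRF match 26 bases after it. No marked match overlapped another. Of all 32851 windows listed, 7.81% held the AP-1 letters, 8.30% the STAT letters, 23.92% the IRF letters and 23.36% the NFAT letters. The IRF and NFAT letters are thus common, the AP-1 letters are less so, and each match describes letters only. Windows were listed for 7 of the 10 members, 8 windows in all, and that of Il2ra (chr2:11642542-11642841) held none of the 4.

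Il15ra, the private chain of the Il15 receptor, was 2.03-fold higher in CD4 T cells of gland than of spleen. The gland arrays were at 7.01, 6.72, 6.69 and 6.85 and the spleen arrays at 5.72, 5.95 and 5.72. The groups were separated by more than the range of either one. The difference was 1.02 ± 0.22 (SE; limma adjusted p = 0.00292), just past the 2-fold minimum, and the second Il15ra probe set gave 1.07 (adjusted p over all probe sets = 7.20e-04). Without gland CD4 T cell replicate 1, or without spleen CD4 T cell replicate 1 or 3, it fell just short of 2-fold, at 0.96, 0.98 and 0.99.

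In B cells Il15ra was at 5.52, 5.68, 4.60 and 5.57 in gland and at 5.59, 5.28 and 5.32 in spleen. Gland B cell replicate 3 was the low array, and the groups overlapped. The difference between the gland effects was -1.08 ± 0.32 (SE; limma adjusted p = 0.0406), and leaving out single arrays moved its adjusted p between 0.0211 and 0.102 and ended the call for 11 of 15 arrays, that is for all but gland B cell replicates 1, 2 and 4 and epithelial replicate 1. Without gland B cell replicate 3 the value was -0.83. In the order of group means, gland CD4 T cells were followed by epithelium, spleen CD4 T cells, spleen B cells and gland B cells, and only the first step passed (adjusted p = 0.0332). Without epithelial replicate 1 that step gave an adjusted p of 0.192 and the second step 0.0285.

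Il2rb, the signalling chain that the Il2 and Il15 receptors share, was higher in every gland CD4 T cell array than in any spleen one. The gland arrays read 10.43, 10.50, 10.43 and 10.42, and the spleen arrays 9.23, 9.49 and 9.42. Spread within gland CD4 T cells was small, with an SD of 0.04. The difference was 1.07, with an SE of 1.09 and an adjusted p of 0.569 in limma on all arrays, and with an SE of 0.33 and an adjusted p of 0.0285 without epithelial replicate 1. A fit of only the gland and spleen CD4 T cell arrays gave an adjusted p of 3.89e-05.

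The other 2 Il2rb probe sets gave a larger difference than the one kept. The first of them read 8.92, 8.91, 8.92 and 8.81 in gland and 6.64, 6.71 and 6.75 in spleen CD4 T cells, a difference of 2.19 (4.56-fold; adjusted p over all probe sets = 0.0135). The second differed by 2.09 (4.26-fold; adjusted p = 1.19e-05), with spleen values of 4.05 to 4.39. All 3 probe sets thus placed gland above spleen, the one kept by 2.10-fold and the others by over 4-fold. The difference between the gland effects in B and CD4 T cells was -0.43 in the probe set kept (limma adjusted p = 0.920). It was -2.15 in the first of the others (limma adjusted p over all probe sets = 0.145, or 7.73e-06 without epithelial replicate 1). It was -1.90 in the second (adjusted p = 0.00210), which was called on all arrays.

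Il2ra, which regulatory and activated T cells carry, was at 9.22, 9.29, 9.04 and 9.09 in gland CD4 T cells and at 8.45, 8.51 and 8.53 in spleen CD4 T cells. Gland lay above spleen without overlap. The difference was 0.66 (1.58-fold), with an adjusted p of 0.444 in limma on all arrays and of 0.00391 without epithelial replicate 1, under the 2-fold minimum in both. Its second probe set read 6.39, 6.51, 6.27 and 6.42 against 5.40, 5.13 and 5.16, a difference of 1.16 (2.24-fold; adjusted p over all probe sets = 6.96e-05).

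In B cells Il2ra was at 4.68, 4.78, 4.25 and 4.19 in gland and 4.97, 5.20 and 5.55 in spleen. Every gland B cell array lay below every spleen one. The difference was -0.76 ± 0.53 (SE; limma adjusted p = 0.378), and without epithelial replicate 1 it was -0.76 ± 0.15 (adjusted p = 0.00236). The difference between the gland effects in B and CD4 T cells was -1.42, with an adjusted p of 0.293 on all arrays and of 3.12e-04 without that array, and it was then the third member called, where 4.14% of all genes were called in that direction; the second probe set gave -1.52 on all arrays (adjusted p over all probe sets = 3.90e-04).

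**Figure D3:**
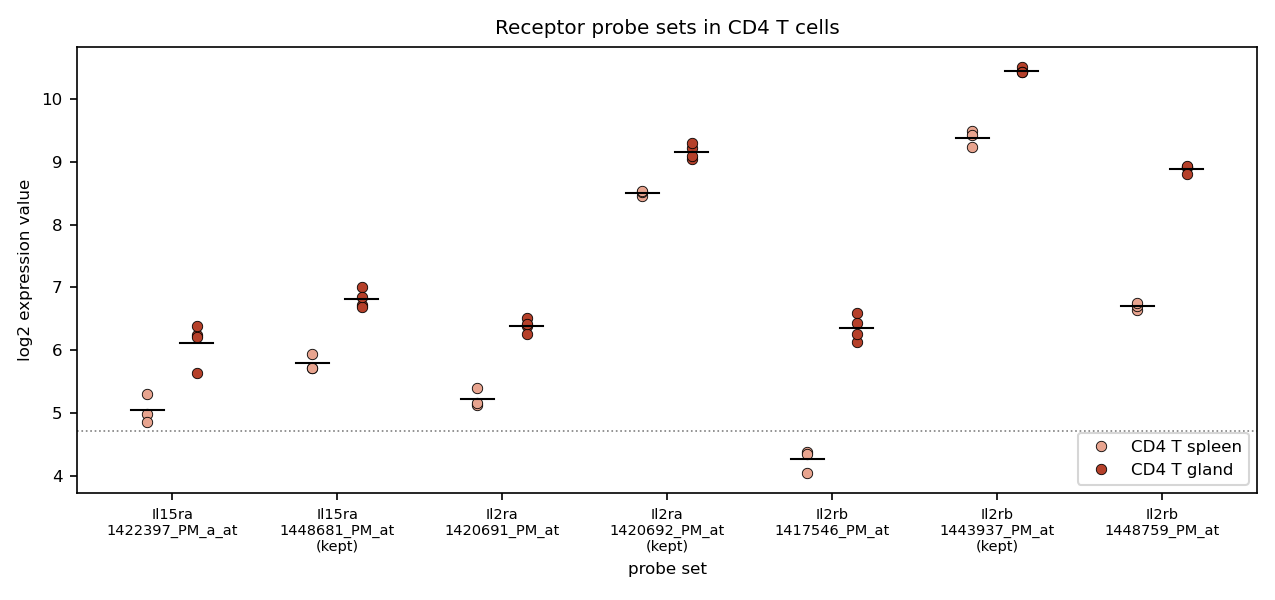
Log2 expression values (vertical axis) of every probe set of Il15ra, Il2ra and Il2rb (horizontal axis) in spleen and gland CD4 T cells; each point is 1 array, bars are means, the probe set read elsewhere is marked as kept and the dotted line is the median of all values. Gland lies above spleen in all 7 probe sets, and the gap is widest in the 2 Il2rb probe sets that were not kept.

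Counting arrays that do not overlap, 6 of the 8 members were higher in all gland than in all spleen CD4 T cell arrays (Il2, Il2ra, Il2rb, Il15, Il15ra and Il21r), where 16.8% of all genes were, and none was lower in all of them, where 17.7% were. Of these 6, Il15 lay at 1.39 to 2.35, which is not shown to exceed background. For Il21r the nearest arrays were at 7.78 and 7.70, and its gap was 0.26 without gland replicate 2. In B cells Il4ra and Il21r were higher and Il2ra lower without overlap, where 14.5% of all genes were higher and 16.1% lower.

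Il4ra, the receptor chain for Il4, was at 7.03, 7.07, 7.12 and 7.37 in gland B cells and at 6.36, 6.62 and 6.59 in spleen B cells. The gland arrays were all higher, by 1.54-fold (log2 difference 0.62 ± 0.28 SE; limma adjusted p = 0.146). In CD4 T cells it was at 5.62, 7.09, 5.83 and 6.01 in gland and at 6.65, 6.30 and 6.51 in spleen. Gland replicate 2 was above the spleen arrays and the other 3 gland arrays were below them.

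The gland effect on Il4ra in B cells minus that in CD4 T cells was 0.97 ± 0.39 (SE; limma adjusted p = 0.150). Without gland CD4 T cell replicate 2 this was 1.29 (adjusted p = 0.00464), and the difference within CD4 T cells was -0.67 (adjusted p = 0.0213). Il4ra was also the only member called higher in B than in CD4 T cells of the gland, by 2.01-fold (1.01 ± 0.26 SE; adjusted p = 0.00656), and that call was lost without gland B cell replicate 4 or gland CD4 T cell replicate 1, 3 or 4, at 0.84 to 0.96. In spleen the 2 cell types differed by 0.04 (adjusted p = 0.962).

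Il21r, the receptor chain for Il21, was at 8.11, 8.00, 8.24 and 8.02 in gland B cells and 7.33, 7.61 and 7.56 in spleen B cells. The gland B cell arrays were all above the spleen ones, by 1.51-fold, with a limma adjusted p of 0.0547. In CD4 T cells the gland arrays were at 7.78, 8.91, 7.93 and 7.94 and the spleen arrays at 7.70, 7.59 and 7.60. The gap was 0.51 ± 0.20 (SE; adjusted p = 0.0813) and 0.26 without gland replicate 2.

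Gland CD4 T cell replicate 2 thus held the highest value of its group for both Il4ra and Il21r, which lie next to each other on chromosome 7 (GRCm38.p6, 125552271 to 125579474 and 125603252 to 125634397, with 23777 bases between them). It exceeded the mean of the other 3 gland CD4 T cell arrays by 1.28 for Il4ra and by 1.03 for Il21r, and 0.333% and 0.690% of all genes exceeded it by more. The flanking genes Nsmce1 and Gtf3c1 differed there by -0.32 and -0.09. In the same array Ms4a1, a B cell gene, was at 2.82 where the other 3 were at 4.37 to 4.84, and the stress gene Atf3 was at 8.34 where they were at 5.73 to 6.72; the part of these in the result was not tested. Il2ra and Il15ra, which are neighbours on chromosome 2 with 11977 bases between them, did not stand out in it (0.17 and -0.13).

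Il15, which supports memory T cells and natural killer cells and is made outside the lymphoid lineage, was highest in epithelial cells. Its values were 4.60, 5.18 and 4.42 in the 3 epithelial arrays and 1.39 to 2.35 across the 14 lymphocyte arrays. No lymphocyte array came near the epithelial ones, although 2 of the 3 epithelial values lay below the median of all values. The epithelial sort exceeded gland CD4 T cells by 6.15-fold, spleen B cells by 6.56-fold, gland B cells by 7.14-fold and spleen CD4 T cells by 8.5-fold, and against the mean of both gland lymphocyte groups the difference was 2.73 ± 0.15 (SE; limma adjusted p = 1.47e-10). The mean of 8 stromal and endothelial markers was 6.60 to 7.07 in the epithelial arrays and 3.37 to 3.99 in the lymphocyte arrays, and its part in the Il15 result was not tested.

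Among lymphocytes Il15 differed less. In CD4 T cells the gland arrays were at 2.03, 1.98, 2.35 and 2.10 and the spleen arrays at 1.39, 1.71 and 1.84, a gap of 0.47 ± 0.17 (SE; limma adjusted p = 0.0576) at levels far below the median of all values. The order below epithelium was gland CD4 T cells, spleen B cells, gland B cells and spleen CD4 T cells, and no neighbouring pair in it passed.

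Il7, a survival factor for lymphocytes made by stromal and epithelial cells, was at 3.45, 3.92 and 3.06 in the epithelial arrays and between 2.41 and 2.77 in all lymphocyte arrays. In this probe set every epithelial array was higher than every lymphocyte array, yet all values lay below 4.71. The epithelial sort exceeded the gland lymphocytes by 1.77-fold (0.82 ± 0.13 SE; limma adjusted p = 4.33e-05), short of the 2-fold minimum, and by 1.03 on the log2 scale without epithelial replicate 3, where it was called. The second Il7 probe set read 2.03, 2.90 and 2.62 in the epithelial arrays, with replicate 1 below all lymphocyte arrays, and gave a difference of 0.20 (1.15-fold; adjusted p over all probe sets = 0.231), or 0.44 without replicate 1 (adjusted p = 0.00383). In the probe set kept, gland and spleen differed by 0.09 in B cells and by -0.01 in CD4 T cells (adjusted p = 0.754 and 0.973).

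The epithelial sort against the gland lymphocytes gave 1 member called higher, Il15, and 5 called lower, Il2, Il2ra, Il2rb, Il4ra and Il21r, where 15.2% of all genes were called higher and 10.3% lower; the members' median was -1.88 beside -0.10 over all genes. Il4ra, at 4.45, 3.68 and 4.56, was lower than in each of the 4 lymphocyte groups, by 3.75-fold to 7.55-fold, and so was Il21r, at 5.78, 5.50 and 5.90, by 3.42-fold to 5.34-fold. In the probe set kept, epithelial Il15ra, at 5.78, 6.53 and 6.37, exceeded gland and spleen B cells by 1.85-fold and 1.78-fold (limma adjusted p = 0.00268 and 0.00681). Without epithelial replicate 1 it exceeded them by 2.16-fold and 2.08-fold and was called higher than in both. The second Il15ra probe set read 4.97, 5.29 and 5.40 in the epithelial arrays. It read 4.06 to 4.90 in gland and 4.74 to 4.89 in spleen B cells, and these comparisons were not tested for it. Il2 was called lower against gland CD4 T cells only. In these 4 comparisons 10.4%, 11.7%, 10.6% and 11.3% of all genes were called lower in the epithelial sort than in gland B, spleen B, gland CD4 T and spleen CD4 T cells, and 16.2%, 16.0%, 14.8% and 16.1% higher. Against gland and spleen B cells 2 members, Il4ra and Il21r, were called lower on all arrays and 4 without epithelial replicate 1, with Il2ra and Il2rb added, where 10.7% and 12.0% of all genes were called lower and 16.3% higher in both.

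For Il2ra, at 6.16 in epithelial replicate 1 and at a mean of 2.996 in the other 2, the value against the gland lymphocytes was -2.77 (6.81-fold; limma adjusted p = 7.81e-05), and -3.82 without replicate 1 (14.1-fold; adjusted p = 8.22e-12). Against gland B cells it was -0.43 and -1.48 (adjusted p = 0.495 and 1.92e-06), and against spleen B cells -1.19 and -2.24 (adjusted p = 0.0805 and 2.89e-08). For Il2rb the epithelial mean was 4.54 ± 3.75 (SD, n = 3), and its value against the gland lymphocytes was -2.94 (adjusted p = 0.0142), -5.11 without replicate 1 (adjusted p = 3.79e-09), and -2.0 or -1.73 without replicate 2 or 3, where the call was lost. Against gland B cells alone Il2rb differed by 0.02 with replicate 1 and by -2.14 without it (adjusted p = 0.989 and 1.58e-04), and against spleen B cells by 0.65 and by -1.51 (adjusted p = 0.643 and 0.00433). The leukocyte genes of that array moved with both receptor genes, and their part was not tested.

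Both measured chains of the Il2 receptor were lower in B than in CD4 T cells. In gland, B cells were called lower for Il2 (6.99-fold), Il2ra (25.7-fold), Il2rb (60.7-fold) and Il15ra (2.78-fold) and higher for Il4ra, where 5.97% of all genes were called lower and 3.73% higher, with a members' median of -0.85 beside 0.04. In spleen, Il2ra (9.58-fold) and Il2rb (45-fold) were called lower and none higher, where 4.52% of all genes were called lower and 4.63% higher, with a members' median of -0.27 beside 0.00. The second Il15ra probe set gave 2.98-fold in gland, a larger fold than the one kept. The other probe sets of Il2ra and Il2rb gave smaller folds: the second Il2ra probe set 9.51-fold in gland and 3.31-fold in spleen, and the other 2 of Il2rb 38.3-fold and 9.19-fold in gland and 8.62-fold and 2.46-fold in spleen, and B cells were called lower in each. The B cell means of the probe sets kept were 4.48 in gland for Il2ra and 4.52 in gland and 3.89 in spleen for Il2rb, below the median of all values, so these folds rest on B cell values that are not shown to exceed background. Without overlap, the same 4 members (Il2, Il2ra, Il2rb and Il15ra) were lower in B than in CD4 T cell arrays of gland and of spleen, where 15.9% and 20.2% of all genes were. Il2 in spleen differed by -0.84 (adjusted p = 0.00416), short of 2-fold.

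**Figure D4:**
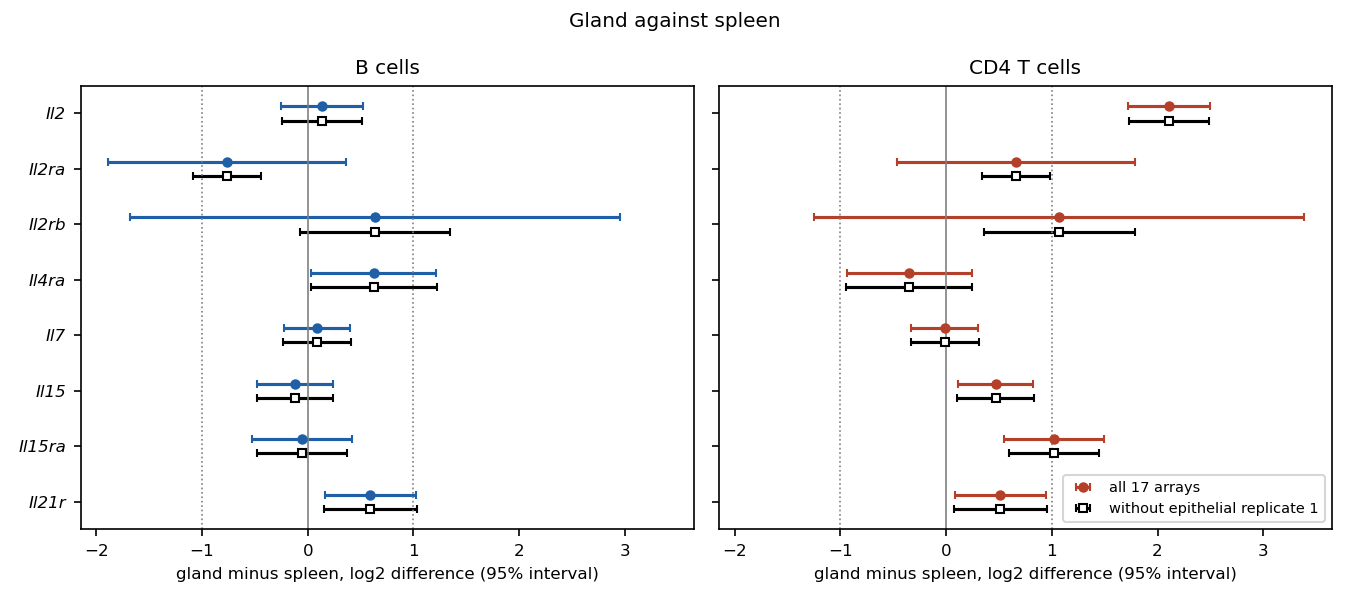
Gland minus spleen log2 differences (horizontal axis) of the 8 members (vertical axis), with B cells left and CD4 T cells right; points are limma estimates with unadjusted 95% intervals from all 17 arrays (filled) and without epithelial replicate 1 (open squares), and dotted lines mark a 2-fold change. In CD4 T cells the intervals from all 17 arrays lie above zero for Il2 at 2.11, Il15ra at 1.02, Il21r at 0.51 and Il15 at 0.47. Il21r and Il15 lie under the 2-fold line and were not called. The intervals of Il2ra and Il2rb narrow without that array.

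Over the 8 members and 5 groups, 9 of 32 neighbouring pairs in the order of group means passed an adjusted p of 0.05 in limma, and 14 did without epithelial replicate 1. By this rule 58.2% to 63.7% of all genes passed between epithelium and each lymphocyte group, or 55.8% to 60.6% without that array. For spleen B against spleen CD4 T cells 22.5% passed (23.7% without it), and for gland against spleen CD4 T cells 23.4% (25.0%). Gland against spleen B cells gave 17.7% (19.5%). Steps to or from epithelium were thus passed by most genes. For Il2ra the order was gland CD4 T, spleen CD4 T, spleen B, gland B and epithelial cells, and only the step from CD4 T to B cells passed on all arrays (adjusted p = 3.46e-04), while every one of these 4 differences passed without epithelial replicate 1. For Il2rb it was gland CD4 T, spleen CD4 T, epithelial, gland B and spleen B cells, and only the second step passed on all arrays (adjusted p = 0.00194), while without epithelial replicate 1 the step between the CD4 T cell groups passed too (adjusted p = 0.0285), and so did the pair of epithelium and gland B cells, with its order reversed (-2.14). For Il4ra it was gland B, spleen B, spleen CD4 T, gland CD4 T and epithelial cells, and for Il21r gland CD4 T, gland B, spleen CD4 T, spleen B and epithelial cells; in both only the last step, to epithelium, passed. In the probe sets kept, the highest and lowest group means were apart by 6.56 on the log2 scale for Il2rb, 5.11 for Il2ra, 3.09 for Il15, 2.94 for Il2, 2.92 for Il4ra, 2.42 for Il21r, 1.47 for Il15ra and 0.94 for Il7.

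As a description over the 17 arrays, which share 5 groups and are therefore not independent points, Il2 correlated with Il2ra at 0.81, with Il2rb at 0.81 and with Il15ra at 0.74, and Il2ra with Il2rb at 0.95. Over the 14 lymphocyte arrays these were 0.83, 0.85, 0.89 and 0.97. Il4ra and Il21r correlated at 0.90 over all arrays and at 0.46 over the lymphocyte arrays. Of 9722 genes with a mean above 4.71, those closest to Il2 in pattern over the 17 arrays were Map6 (r = 0.99), Itgae and Sdf4 (both 0.98). Closest to Il2ra were Cd27 (0.99), Rinl and Cd28 (both 0.98), and to Il2rb Ctsw (0.99), Apol7b (0.98) and Ms4a4b (0.97). Closest to Il15 were Me1, Id4 and Rilp (each 0.98), to Il4ra Usp24 (0.97), Rhebl1 (0.96) and Rrp12 (0.95), and to Il21r Syf2, Mepce and Nup98 (each 0.97).

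Other genes of the pathway were taken from a list of 41, of which 39 were measured: further ligands and receptor chains, JAK and STAT genes, feedback inhibitors, targets of these cytokines and regulators of Il7r. In CD4 T cells 6 were called higher in gland and 2 lower, beside 5.35% and 1.62% of all genes, with a list median of 0.00 beside -0.03 over all genes. Il21, a ligand of the family that helps B cells, read 7.68, 7.69, 7.95 and 8.24 in gland and 3.79, 4.08 and 3.26 in spleen CD4 T cells. No array of either group came near the other. The spleen values lay below the median of all values, so the size of the fold rests on values not shown to exceed background. The difference was 4.18 ± 0.16 (SE; 18.2-fold; limma adjusted p = 4.01e-11).

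The other 5 higher were Jak3, the kinase that binds the gamma chain (2.22-fold), the transcription factor Stat3 (2.03-fold), the feedback inhibitor Socs2 (2.41-fold), the receptor chain Crlf2 for Tslp (2.14-fold) and Il13ra1, a chain that pairs with Il4ra (2.01-fold, at 3.79 to 4.04 in gland, below the median of all values). The survival gene Bcl2 was 2.45-fold lower and the growth regulator Myc 2.32-fold lower. With the mean of each gene's probe sets, Jak3 was at 0.80, Stat3 at 0.53, Socs2 at 0.69 and Il13ra1 at 0.33 and none of the 4 was called. Il13ra1 also fell short of 2-fold without gland replicate 1 or 2 or spleen replicate 1 (0.94 to 0.99), Stat3 without gland replicate 2 or spleen replicate 1 (0.94 and 0.95) and Myc without gland replicate 2 or spleen replicate 2 (-0.90 and -0.96). Stat5a, Stat5b and Jak1 were not called, nor was Il4, at 3.13 to 3.95 in gland and 3.97 to 4.52 in spleen.

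In B cells 3 of the 39 were called higher in gland and none lower, beside 2.58% and 1.60% of all genes, with a list median of 0.13 beside 0.00. Socs3, a feedback inhibitor, was at 6.50, 6.38, 6.42 and 6.77 in gland and at 3.73, 3.70 and 3.76 in spleen B cells, a 6.89-fold difference (2.78 ± 0.13 SE). Its spleen values likewise lay below the median of all values. Myc was 3.15-fold higher and Klf2, a regulator of lymphocyte trafficking, 2.72-fold higher. Myc thus moved in opposite directions in the 2 cell types, and the difference between its gland effects was 2.87 ± 0.47 (SE; limma adjusted p = 7.33e-04). Klf2 and Socs3 also differed, by 1.82 and 1.93, and 1.22% of all genes were called higher in that difference.

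Against the gland lymphocytes the epithelial sort had 5 of the 39 called higher and 18 lower, beside 15.2% and 10.3% of all genes, with a list median of -0.83 beside -0.10. The higher ones were Il13ra1 (13.4-fold), Tslp (11-fold), a cytokine that epithelia make, Socs2 (8.10-fold), Cish (3.43-fold) and Pik3r1 (2.37-fold). Gland lymphocyte arrays read 3.44 to 4.04 for Il13ra1 and 2.23 to 2.80 for Tslp, below the median of all values. Among the lower were Crlf2 (4.85-fold), Jak1 (2.88-fold), Stat5a (2.49-fold), Stat5b (2.57-fold) and the phosphatase gene Ptpn6 (11.5-fold). Jak3 was lower by 3.63-fold, but the mean of its probe sets put it at 0.04.

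Between the lymphocytes, Cish and Socs2, feedback inhibitors induced by STAT5, were 20.9-fold and 20.3-fold lower in gland B than in gland CD4 T cells, and 17.4-fold and 13.7-fold lower in spleen. Fcer2a (CD23) and Il4i1, which Il4 induces in B cells, were 90.6-fold and 14.7-fold higher in gland B cells, and 100.5-fold and 30.0-fold higher in spleen B cells. In B cells Cish read 3.89 to 4.79 and Socs2 3.47 to 4.79, nearly all below 4.71. In CD4 T cells Fcer2a read 2.87 to 3.72 and Il4i1 3.79 to 4.50, all below it. The sizes of these folds thus rest on values that are mostly not shown to exceed background. In gland 6 of the 39 were called higher and 6 lower in B cells, where 3.73% and 5.97% of all genes were, and in spleen 4 and 6, where 4.63% and 4.52% were.

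**Figure D5:**
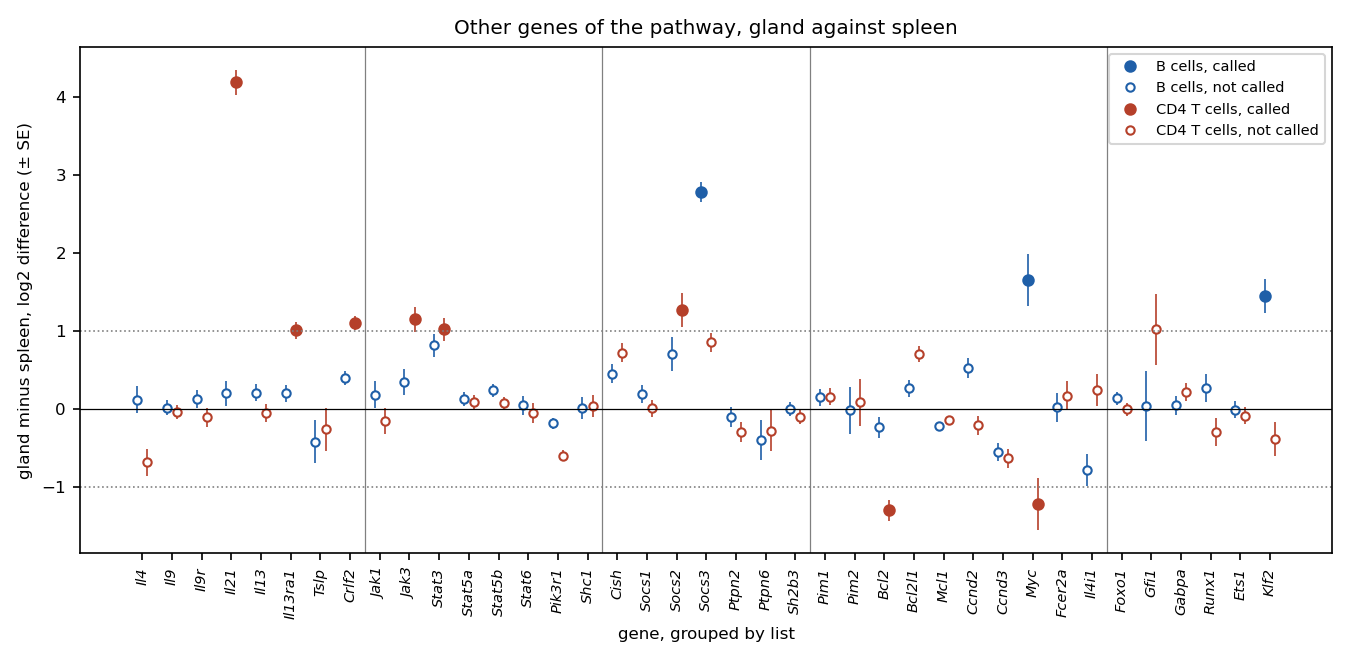
Gland minus spleen log2 differences (vertical axis, with standard errors) of the 39 measured pathway genes outside the members (horizontal axis, grouped by list), blue for B cells and red for CD4 T cells; filled points were called and dotted lines mark a 2-fold change. Il21 at 4.18 in CD4 T cells and Socs3 at 2.78 in B cells are farthest from zero.

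Marker lists moved beside these results. In CD4 T cells the mean of 6 measured regulatory T cell markers was 10.29 to 10.39 in gland and 7.59 to 7.79 in spleen, with 4 of the 6 called higher and Foxp3, their defining gene, at 9.45 to 9.86 against 8.22 to 8.45. The mean of 6 effector T cell markers was 9.76 to 9.99 against 6.63 to 7.25, with 5 of the 6 called higher, and that of 3 naive T cell markers 7.23 to 7.91 against 8.13 to 8.56, with 1 lower. The mean of 7 epithelial markers was 5.94 to 6.35 in gland and 3.89 to 4.00 in spleen CD4 T cells, and 5.81 to 6.08 against 3.92 to 4.03 in B cells; Epcam was at 6.57 to 6.80 against 5.12 to 5.30 in CD4 T cells. The mean of 8 immediate early genes, which tissue handling can induce, was 8.95 to 9.38 against 5.83 to 6.02 in CD4 T cells and 9.51 to 9.81 against 5.81 to 5.97 in B cells. The mean of 4 lacrimal secretory markers was 8.58 to 8.88 in gland and 3.99 to 4.79 in spleen CD4 T cells and 8.31 to 8.77 against 4.54 to 5.53 in B cells, with 4 of 4 called higher in both. The mean of 5 plasma cell markers was 8.07 to 8.36 in gland and 6.19 to 6.67 in spleen CD4 T cells, with 4 of 5 called higher, and 7.64 to 7.91 against 8.22 to 8.54 in B cells, with 1 lower. Of 6 immature B cell markers, 4 were lower in B cells of the gland, and their mean over all 6 was 4.52 to 4.78 there against 5.43 to 5.62. The part of these lists in the gland effects on Il2, Il15ra, Il2ra, Il2rb, Socs3 and Myc was not tested. The natural killer list in CD4 T cells was at 4.49 to 4.80 in gland and 4.28 to 4.7 in spleen. Of its 6 markers 1 was called higher, and Ncr1 was at 1.96 to 2.16 and 1.95 to 2.09, beside the difference in Il2rb. The mean of 8 myeloid markers was 4.77 to 4.82 in gland and 3.71 to 4.39 in spleen CD4 T cells. Of these 8, 1 was called higher, where 5.35% of all genes were. The part of both lists was not tested. In B cells 2 CD8 T cell markers averaged 4.94 to 5.88 in gland and 4.35 to 4.56 in spleen, and 3 plasmacytoid dendritic cell markers 7.03 to 8.31 and 6.65 to 6.83, while B cell markers were at 9.94 to 9.99 and 10.04 to 10.21.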

How the data were processed

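The authors deposited 1 table of log2 values (45141 probe sets, 17 arrays), made with Partek and RMA per the submitters' processing notes; versions are not given in the sources used here. Per the labels' protocols, sorted cells were lysed directly and their RNA amplified and biotin-labelled; 3 RNA samples of lower integrity could not be matched to arrays. Of the probe sets, 28898 carried 1 gene symbol (28689 of them matched to RefSeq by gene identifier), 551 several and 15692 none. The first kind was reduced to 17097 genes by the highest mean over all arrays. Groups came from the sample titles. In R 4.3.3, limma 3.58.1 (lmFit, eBayes) estimated 5 group means, with 12 residual degrees of freedom, for 6 comparisons, and p-values were adjusted over all genes by Benjamini-Hochberg. Values of several probe sets were adjusted over all probe sets. The fit was tested on simulated data. All members were named, and so were the pathway genes called in gland against spleen or in the difference between the gland effects. Of the pathway genes called in the other comparisons some were named and the rest only counted. For members whose group means spanned at least 2 on the log2 scale the 3 genes of most similar pattern were named, leaving out antigen-receptor segments and unnamed models. Members and lists were chosen with earlier results of these data known. Alternatives were another probe set rule, a filter on dim genes, other scalings and fits, single arrays left out and a replicate block. Deviations from the group mean in same-numbered arrays of 2 groups correlated at -0.40 to 0.21. With 3 or 4 arrays per group this cannot settle whether the numbers pair the samples.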

Additional observations from a re-analysis of the deposited data

Results flagged for a closer look

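Of the 35 genes (8 members and the pathway genes called in any comparison) examined in the 2 groups of 4 arrays, 6 had an array set apart from its group by a gap large against the group's range. Chance alone gives this in about 1 in 20 groups, and 70 were examined. In gland CD4 T cells, replicate 2 was highest for Il2rb (10.50), where the whole range was narrow, for Il21r (8.91) and for the survival kinase Pim2 (9.10). In gland B cells, replicate 3 was lowest for Il15ra (4.60) and for Il4i1 (7.56) and highest for the cyclin Ccnd2 (10.77). The same 2 arrays thus held all 6. Both also departed from their groups over all genes. The limma array weight was 0.50 for gland CD4 T cell replicate 2 and 1.35 to 1.96 for the rest of its group. It was 0.42 for gland B cell replicate 3 and 1.08 to 1.34 for the rest of that group. The share of all genes with such a gap is not given here, so the 6 are not shown to be particular to these genes.

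The gland effect differed between B and CD4 T cells, by a test of the difference itself in limma, for 8 of these genes, where 3.87% of all genes were called lower in B cells and 1.22% higher. Since the pathway genes among the 35 were taken for a call in any comparison, this one included, that count is partly fixed by the choice. As B cells minus CD4 T cells on the log2 scale, it was -1.97 for Il2, -1.08 for Il15ra, -3.98 for Il21 and -1.03 for Il4i1, and 1.93 for Socs3, 2.87 for Myc, 1.82 for Klf2 and 1.06 for Bcl2. For Il4i1 the value was -0.82 without gland B cell replicate 3, and the call was also lost without 5 other arrays, with adjusted p-values of up to 0.098.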

How the results depend on the processing

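The counts of members called kept within 1.5 times of the values reported for B cells, for the epithelial sort and for B against CD4 T cells under every alternative run. For CD4 T cells, gland against spleen, the count of 2 was 4 with all probe sets tested separately, 1 with a replicate block and 1 to 3 with single arrays left out; for the difference between the gland effects, also 2, it was 4, 1 and 1 to 3. The count of 9 neighbouring pairs that differed was 14 without epithelial replicate 1, a choice made after seeing the data. The replicate block, for which only the numbers in the titles speak, took Il15ra just under 2-fold in CD4 T cells (0.98) and its difference between cell types to an adjusted p of 0.0536, and changed no other call. Array weights left Il15ra at -0.94 in that difference, under 2-fold, and brought Il4ra there to 1.18 (adjusted p = 0.0092). Over all genes, the number called was 1191 in CD4 T cells, 4354 in the epithelial sort, 1659 in gland and 1565 in spleen B against CD4 T cells, and 1901, 7231, 2599 and 2387 with all 28898 probe sets tested separately; with no minimum fold it was 3995, 11081, 5196 and 3843, and in B cells and in the difference 3019 and 1731 in place of 714 and 869. Signs that reversed are given next. With array weights they were Il15ra in B cells (0.10), Il7 in CD4 T cells (0.0057) and Il21r in gland B against CD4 T cells (0.070). With probe sets averaged per gene they were Il7 in CD4 T cells (0.080), Il7 in the difference (-0.066) and Jak3 in the epithelial sort (0.044, against -1.86 in the probe set kept), and with the replicate block Il7 in CD4 T cells (0.015). With single arrays left out, ranges that crossed zero were -0.25 to 0.0038 for Il15 and -0.17 to 0.19 for Il15ra in B cells, -0.062 to 0.027 for Il7 in CD4 T cells, -0.78 to 0.033 for Il2rb and -0.043 to 0.33 for Il21r in the difference, -0.0038 to 0.37 for Il15ra in the epithelial sort, -0.084 to 0.018 for Il7 and -0.17 to 0.21 for Il21r in gland B against CD4 T cells, and -0.054 to 0.12 for Il4ra in spleen. Centring arrays on their medians, quantile normalization and the trend and robust options changed no member's call or sign. The called pathway genes gave 62 results over all comparisons. Averaging probe sets ended 8 of these calls and reversed the sign of 1 more, that of Jak3 in the epithelial sort. Array weights ended 4 of the calls, centring ended 1, and leaving out single arrays ended a call 13 times. The filter on dim genes removed Il7 and Il15. The causes were not tested. The lymphocyte levels of Il15, and Il7 everywhere, lay below the median of all values, so signal over background limits what their differences show.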
